A study of Mus musculus with 2 samples.

Results

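The natriuretic peptide genes and their receptors were followed here across the nuclei of the mouse heart. The 6 genes were taken by symbol from the deposited count tables, where all 6 were present in both libraries, out of 32245 genes. They are the hormone genes Nppa and Nppb, the gene of the processing protease Corin, and the receptor genes Npr1, Npr2 and Npr3. Single nuclei from cardiac tissue were profiled in 2 libraries, 1 named CF-KI and 1 named Control, with a droplet kit that counts the 3′ ends of transcripts. Both came from male C57Bl6/J mice of 3.5 months that carried the Tcf21-MerCreMer driver and received tamoxifen. The driver expresses a tamoxifen-dependent Cre recombinase from Tcf21, a gene of fibroblasts and of the epicardium. CF-KI was homozygous for the activating A350V allele of the inflammasome sensor gene Nlrp3, and Control carried wild-type Nlrp3. The design text calls the model constitutive NLRP3 activation in fibroblasts and states that the Nlrp3 allele was silent in cells without Cre. How many animals went into each library is not given in the sources used here. With 1 library per genotype no test between genotypes is possible, so no p-value is given, and every interval below covers counting error only.

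Atrial natriuretic peptide, from Nppa, and B-type natriuretic peptide, from Nppb, are hormones made by cardiomyocytes in response to stretch, and they lower blood volume and pressure. Nppa is mainly a gene of the adult atria, while Nppb is known as a marker of wall stress in the ventricle. Corin is a membrane protease of cardiomyocytes that cleaves the precursor of the atrial peptide into the active hormone. Npr1 encodes the guanylyl cyclase receptor of both peptides, which answers binding by making cyclic GMP. Npr2 encodes the guanylyl cyclase receptor of C-type natriuretic peptide, the product of Nppc. Npr3 encodes the clearance receptor, which has no cyclase domain and takes the peptides up for degradation.

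The hormone genes are neighbours on chromosome 4 of build GRCm38. Nppb lies at chr4:147985788-147987205 and Nppa at chr4:148000722-148002079, both on the plus strand, both protein coding with 3 exons, and 13.5 kb apart. Npr1 lies at chr3:90450591-90465866 on the minus strand, Npr2 at chr4:43631935-43651244 on the plus strand, Npr3 at chr15:11839896-11907287 on the minus strand and Corin at chr5:72300025-72504473 on the minus strand. The 2 promoters are shown because these neighbours had different levels across the classes of nuclei described below. They were taken from RefSeq (GRCm38.p6), plus strand, from 250 bases before to 50 bases after the start, at chr4:148000472-148000771 for Nppa and chr4:147985650-147985949 for Nppb. The RefSeq start of Nppb lies downstream of the start of the gene span given above. Capitals mark matches on either strand to the letters of 5 motifs of cardiac or basal promoters. The letters GATAA are those of GATA factors. The letters AAGTG are those of NKX2-5 and AGGTGT those of T-box factors. The MCAT element, bound by TEAD factors, was searched as CATTCC and the usual basal element as TATAAA.
Nppa: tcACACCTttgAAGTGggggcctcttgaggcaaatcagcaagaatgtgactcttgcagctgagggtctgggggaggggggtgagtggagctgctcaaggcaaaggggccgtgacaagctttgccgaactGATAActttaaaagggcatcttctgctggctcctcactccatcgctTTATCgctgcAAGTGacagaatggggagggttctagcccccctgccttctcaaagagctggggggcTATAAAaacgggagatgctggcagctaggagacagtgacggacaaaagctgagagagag
Nppb: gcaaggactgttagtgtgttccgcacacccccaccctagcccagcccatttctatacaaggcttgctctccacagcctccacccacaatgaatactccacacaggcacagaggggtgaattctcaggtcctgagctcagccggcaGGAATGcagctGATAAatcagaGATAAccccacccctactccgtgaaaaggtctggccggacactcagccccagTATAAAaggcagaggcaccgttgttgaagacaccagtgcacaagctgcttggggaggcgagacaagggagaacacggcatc
Counting both strands, each window held GATAA 2 times and TATAAA once. In Nppa the GATA letters began 121 bases before the start and, on the other strand, at 75, the NKX2-5 letters at 239 and 65, the T-box letters, on the other strand, at 248, and the TATA letters at 9. In Nppb the GATA letters began at 94 and 83, the MCAT letters, on the other strand, at 105, and the TATA letters at 31. No match overlapped another. The letters are short and common: among 32851 promoter windows of this length, 25.4% held GATAA, 46.4% AAGTG, 13.7% AGGTGT, 14.7% CATTCC and 13.6% TATAAA. Promoters of all 6 genes matched the RefSeq table. That of Npr2 held AGGTGT at 151 bases before the start, and those of Npr1, Npr3 and Corin held none of the 5 letter strings. A match is a description of the sequence and does not show binding.

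The libraries differed in ways that touch every value below. CF-KI held 15077 barcodes with 21603653 unique molecular identifiers (UMIs) and Control 11257 barcodes with 18040776 UMIs, and 46 barcode sequences occurred in both. The median share of mitochondrial UMIs per barcode was 14.2% in CF-KI and 3.46% in Control. Doublets called by Scrublet, 15.2% of the barcodes in CF-KI and 3.0% in Control, were removed. Nuclei with at most 20% mitochondrial UMIs were compared, which left 9158 CF-KI and 10339 Control nuclei. Before that limit, a cluster named airway epithelial-like held 120 Control nuclei and no CF-KI nucleus. Nlrp3, the altered gene, had 40 UMIs in CF-KI and 20 in Control, and a 3′ count does not read the A350V change.

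Classes of nuclei rest on marker RNA alone and are therefore written with the ending -like. None of the 6 genes, nor any gene of the pathway list used below, entered the clustering. Levels are the UMIs of a gene as a share of all non-mitochondrial UMIs summed over the nuclei of a class, in the usual CPM unit, and differences are log2 ratios of CF-KI over Control. At least 50 nuclei in each library were reached by 9 classes. The atrial cardiomyocyte-like class, with 23 CF-KI and 91 Control nuclei, was added for Nppa and Nppb. Its name rested on 7 of 10 raised markers, and 6 of its 10 leading genes were markers of its list, with Bmp10, Myl4 and Sln in front. Different clusters held most of 2 classes. Ventricular cardiomyocyte-like nuclei within the limit came from cluster 4 in CF-KI (2021 of 2561) and from cluster 2 in Control (2026 of 2221). Fibroblast-like nuclei came mostly from cluster 0 in CF-KI (1998 of 2764) and from cluster 1 in Control (2365 of 3516).

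Summed over all barcodes of a library, Nppb stood out among the 6 genes. It had 1955 UMIs in CF-KI (114 CPM) and 648 in Control (38.6 CPM), a log2 ratio of 1.57 (95% counting interval 1.44 to 1.70). The ratio was -0.08 for Nppa (5690 and 5898 UMIs), -0.12 for Corin (996 and 1067), -0.12 for Npr1 (421 and 449), -0.26 for Npr2 (412 and 483) and -0.01 for Npr3 (1906 and 1880). Over all barcodes, 1 hormone gene was thus about 3 times as abundant in CF-KI while the other 5 differed by less than 0.3 on the log2 scale. These sums mix classes of unequal size, so the classes were taken one by one.

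**Figure D1:**
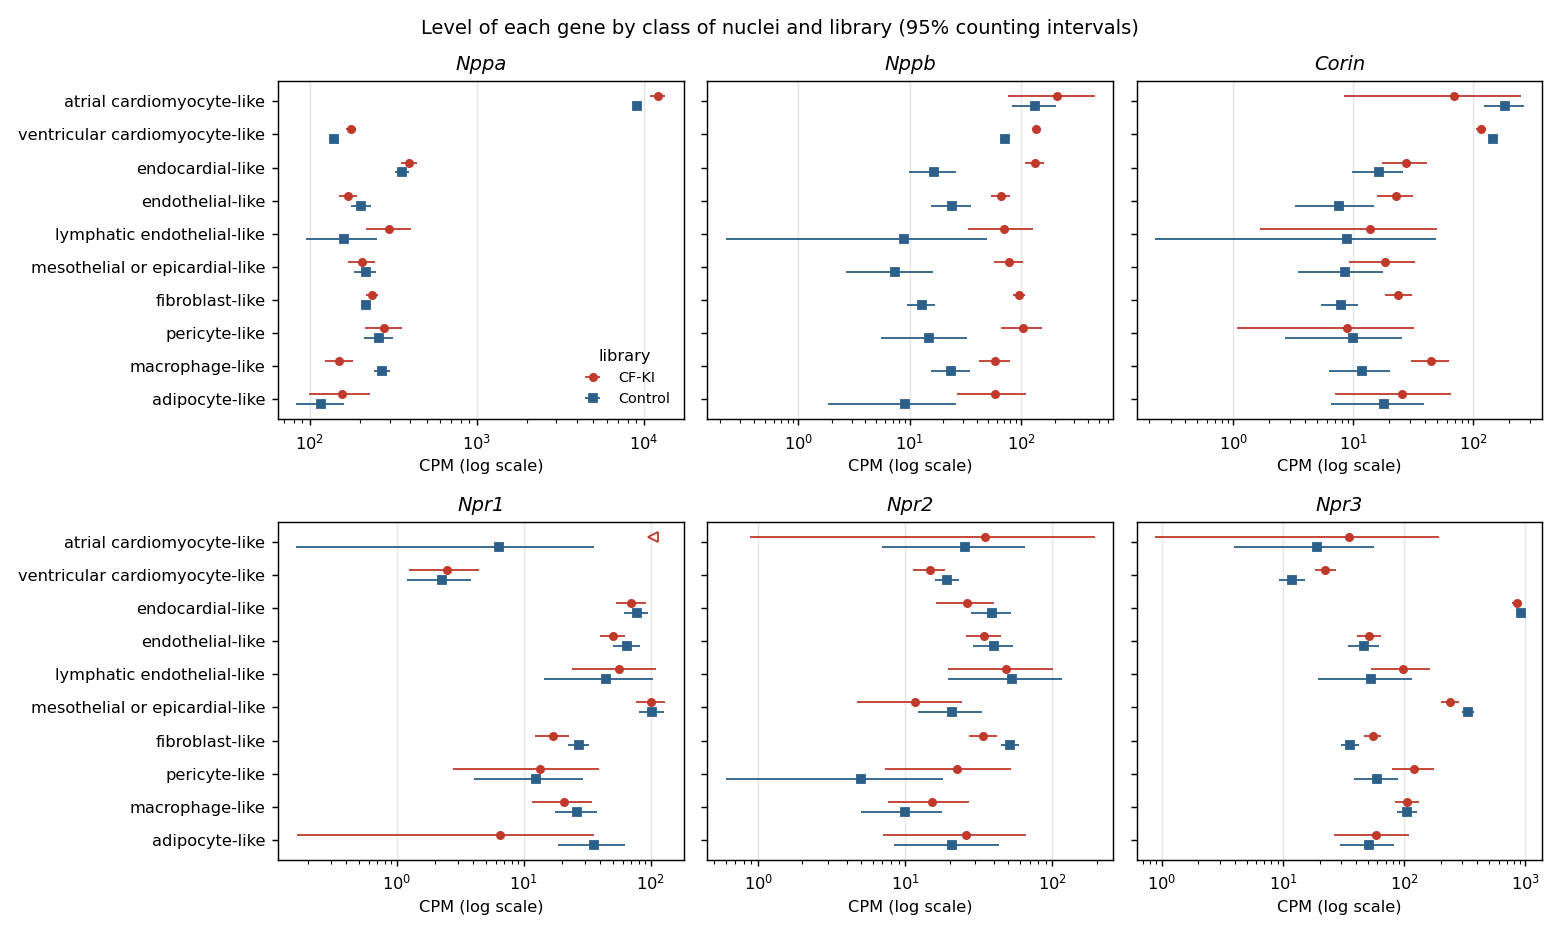
Level of the 6 genes in CPM (horizontal log axis) in 10 classes of nuclei (vertical axis). Red circles are the CF-KI library and blue squares the Control library, bars are 95% counting intervals, and the open triangle is the level that 3 UMIs would give where none was counted. Nppa peaks in atrial cardiomyocyte-like nuclei, Npr3 in endocardial-like nuclei, and Nppb outside the cardiomyocyte-like classes is at 58.0 to 132 CPM in CF-KI against 7.35 to 23.8 CPM in Control.

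Nppa was the most unevenly spread of the hormone genes. Atrial cardiomyocyte-like nuclei had 12098 CPM in CF-KI (348 UMIs, interval 10860 to 13438) and 9131 CPM in Control (1433 UMIs, interval 8664 to 9616). That was 68.5 times the ventricular cardiomyocyte-like level in CF-KI and 65.2 times in Control. The atrial ratio between the libraries was 0.41 (0.23 to 0.58), but it turned to -0.35 with TMM scaling and -0.46 with DESeq2 scaling. Those scalings shifted every ratio of this class by -0.76 and -0.86. Among its 1133 genes with at least 20 UMIs the median ratio in CPM was 0.06. The DESeq2 shift has the size of the ratio of a gene with 1 CF-KI and 3 Control UMIs, so these scalings are weak guides here. The Nppa ratio was also below 0 in the bins of mitochondrial content given below, so it has no settled direction. Per 1000 UMIs of 4 other atrial genes (the myosin light chains Myl7 and Myl4, the calcium pump regulator Sln, and Stard10), Nppa had 2245 UMIs in CF-KI (1853 to 2731) and 2342 in Control (2129 to 2578). The ratio of those values was -0.06 (-0.23 to 0.11).

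Single atrial cardiomyocyte-like nuclei ranged from no Nppa UMI to a large share of their RNA. At least 1 Nppa UMI was found in 87.0% of CF-KI and 85.7% of Control nuclei of the class. Within the mitochondrial limit the median share of non-mitochondrial UMIs was 0.58% in CF-KI and 0.53% in Control, and the highest was 6.74% and 8.46%. A few nuclei carried a large part of the sum: the 3 highest of 23 nuclei held 67.0% of the Nppa UMIs in CF-KI, and the 10 highest of 91 held 45.7% in Control. In CF-KI 1 nucleus, with 9.42% mitochondrial UMIs, held 186 of the 348 Nppa UMIs of the class. It also held 186 of the 291 in the bin of 5% to 20% given below. The CF-KI level and the ratio therefore lean on 1 nucleus, which the counting intervals do not cover, and no ratio was taken without it. The Nppa share also moved with mitochondrial content. With no limit the class had 54 CF-KI and 111 Control nuclei, the medians were 1.24% and 0.60%, and the levels were 24766 and 13719 CPM. Between 5% and 20% mitochondrial UMIs the levels were 17997 CPM (14 nuclei) and 28083 CPM (15 nuclei), and from 1% to 5% they were 5148 CPM (8 nuclei) and 6669 CPM (29 nuclei). Within both of these bins the Control library had the higher level, with ratios of -0.64 (-0.85 to -0.44) and -0.37 (-0.81 to 0.04). The part of mitochondrial content in the class difference was not tested.

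**Figure D2:**
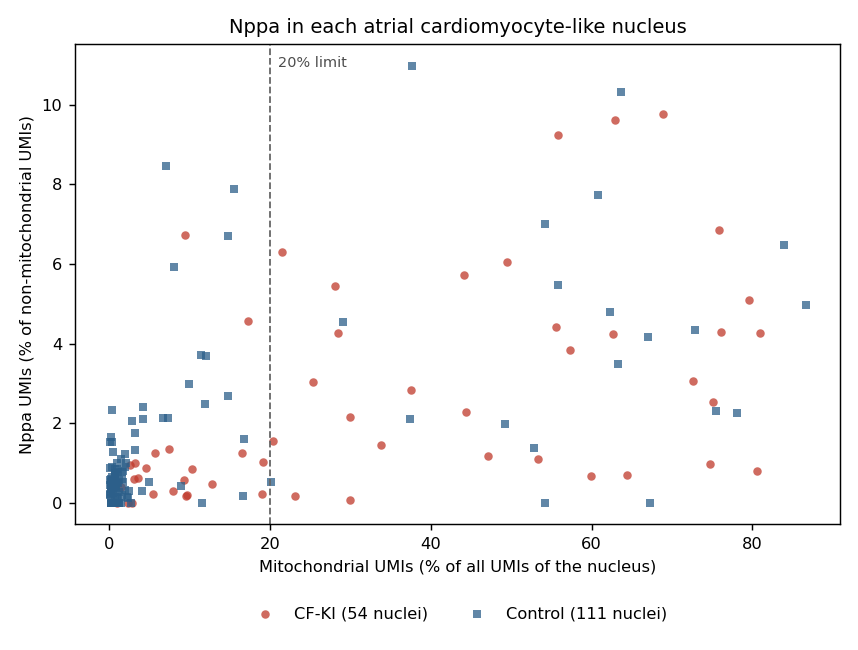
Nppa UMIs as a percent of non-mitochondrial UMIs (vertical axis) against the percent of mitochondrial UMIs (horizontal axis) in each atrial cardiomyocyte-like nucleus, 54 of CF-KI (red circles) and 111 of Control (blue squares). Nuclei left of the dashed line at 20% entered the comparison, and their highest values are 6.74% and 8.46%, while nuclei right of it reach 9.76% and 10.98%.

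Outside the atrial class Nppa lay in 1 band far below the atrial level. The 8 classes that are not cardiomyocyte-like had 150 to 392.4 CPM in CF-KI and 117 to 356 CPM in Control. Ventricular cardiomyocyte-like nuclei, at 177 CPM (783 UMIs) and 140 CPM (811 UMIs), sat in the lower part of that band rather than above it. In the order of levels 5 classes lay between atrial and ventricular cardiomyocyte-like nuclei in CF-KI, and 7 in Control. Below endocardial-like nuclei, the intervals of all neighbours in that order overlapped. The share of nuclei with a Nppa UMI was as flat: 19.6% and 20.6% in ventricular cardiomyocyte-like nuclei, at medians of 1556 and 2294 UMIs, against 18.7% and 19.6% in fibroblast-like nuclei, at 780 and 957 UMIs.

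The spread of Nppa outside the atrial class was set beside that of the 4 other atrial genes, which other heart cells are not known for. These 4 are part of the atrial marker list. Per 1000 of their UMIs, Nppa had 1111 to 3583 UMIs over 9 classes without cardiomyocyte-like nuclei in CF-KI and 1017 to 2403 over 10 such classes in Control. The atrial cardiomyocyte-like values of 2245 and 2342 lie inside both ranges. The ends of the CF-KI range rest on few UMIs, 10 of Nppa beside 9 of the 4 genes in erythroid-like nuclei and 43 beside 12 in lymphatic endothelial-like nuclei. Per single UMI of the 4 genes, fibroblast-like nuclei had 1.67 Nppa UMIs (1.46 to 1.91) in CF-KI and 2.13 (1.90 to 2.40) in Control. The proportion was not the same for every gene or in every class. Atrial markers with at least 100 UMIs were also set against their whole-library level. In fibroblast-like nuclei 5 of CF-KI were at 53.2% to 203% and 6 of Control at 27.0% to 226%, against 70.9% and 62.0% for Nppa. Per 1000 UMIs of the 4 genes, mesothelial or epicardial-like nuclei had 1298 (984 to 1717) in CF-KI and 1017 (820 to 1262) in Control, below the atrial intervals in both libraries. The ventricular values were 2231 (1964 to 2537) in CF-KI and 2806 (2451 to 3221) in Control, with intervals that overlap the atrial ones. With no mitochondrial limit, ventricular cluster 4 of Control stood apart at 5500 (3541 to 8888, from 132 Nppa UMIs), against 2180 (2031 to 2340) in the atrial cluster of that library. The part of free RNA in the Nppa levels of these classes was not tested. At least 10 Nppa UMIs were found in 4 of 2561 CF-KI and 10 of 2221 Control ventricular cardiomyocyte-like nuclei, with highest counts of 98 and 39.

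The ventricular Nppa ratio of 0.34 (0.19 to 0.48) did not keep its direction when nuclei of like mitochondrial content were compared. It was 0.10 (-0.45 to 0.61) at up to 1% mitochondrial UMIs, -0.73 (-0.99 to -0.48) from 1% to 5% and -1.24 (-1.59 to -0.88) from 5% to 20%. Thinned to 500 UMIs per nucleus it was -0.0033 (-0.26 to 0.25). Only 106 CF-KI nuclei had up to 1% mitochondrial UMIs, against 1802 Control nuclei. In CF-KI 888 nuclei had 5% to 20%, against 85 in Control. Over the limit, the ventricular Nppa ratio was 0.35 (-0.10 to 0.82) from 20% to 50% and 1.07 (0.49 to 1.70) from 50% to 100%. Within the limit, the ratio also differed by cluster. It was -0.18 (-0.51 to 0.13) in cluster 2, -1.49 (-1.78 to -1.19) in cluster 4 and 1.38 (0.83 to 1.96) in cluster 5, which had 195 CF-KI and 47 Control nuclei. In CF-KI 1 nucleus held 98 of the 783 Nppa UMIs of the class, and no ratio was taken without it.

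Ventricular cardiomyocyte-like nuclei held the most Nppb UMIs of any class, but the small atrial class had the higher level in both libraries. The log2 ratio of ventricular over atrial level was -0.62 (-1.75 to 0.84) in CF-KI and -0.91 (-1.54 to -0.20) in Control. The ventricular class held 603 UMIs in CF-KI, 136 CPM (125 to 147), and 412 UMIs in Control, 71.1 CPM (64.4 to 78.4). The 2 intervals do not overlap, and the log2 ratio was 0.94 (0.75 to 1.12). A UMI of Nppb was found in 18.2% of CF-KI and 12.7% of Control nuclei of the class, and after thinning in 7.53% and 3.24%. Counts per nucleus were low, with highest counts of 8 and 11. Atrial cardiomyocyte-like nuclei had 209 CPM in CF-KI from 6 UMIs (76.5 to 454) and 134 CPM in Control from 21 UMIs (82.8 to 205). The interval of the ratio, 0.64 (-0.96 to 2.0), held 0, so no atrial difference was detectable at this depth. The ratio was -0.12 with TMM and -0.22 with DESeq2 scaling, which shift every ratio of this class as given above.

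The same gene differed more in classes not known to make it. In fibroblast-like nuclei it stood at 96.2 CPM in CF-KI (246 UMIs) and at 12.7 CPM in Control (52 UMIs), a ratio of 2.92 (2.48 to 3.38). Of these nuclei 8.25% and 1.42% had a UMI, and 5.19% and 0.75% after thinning. Endocardial-like nuclei had 132 and 16.6 CPM, a ratio of 3.0 (2.27 to 3.81). In CF-KI the endocardial-like level thus reached that of ventricular cardiomyocyte-like nuclei, with overlapping intervals. The ratio was 3.39 (2.16 to 4.91) in mesothelial or epicardial-like, 2.79 (1.45 to 4.37) in pericyte-like, 1.47 (0.82 to 2.16) in endothelial-like and 1.30 (0.56 to 2.06) in macrophage-like nuclei. In all 9 classes the interval lay above 0, and in 8 of them the ratio was past 2-fold. The 8 include lymphatic endothelial-like nuclei (10 and 1 UMIs) and adipocyte-like nuclei (9 and 3 UMIs). These classes have fewer Nppb UMIs than the later counts of genes past 2-fold require. For comparison, 5.09% of all genes in fibroblast-like nuclei and 6.34% in endocardial-like nuclei were past 2-fold higher in CF-KI. The share was 6.9% in mesothelial or epicardial-like, 13.7% in pericyte-like, 2.76% in endothelial-like and 6.33% in macrophage-like nuclei. No share of all genes with an interval above 0 is given. Ventricular cardiomyocyte-like nuclei had the smallest Nppb ratio of the 9.

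Contractile protein RNA moved with Nppb in these classes. The 5 genes Myl2, Myl3, Tnnt2, Tnni3 and Actc1, which encode myosin light chains, troponins and cardiac actin, were taken from the marker lists after their values were seen. Their summed level in fibroblast-like nuclei was 10774 CPM in CF-KI and 2458 CPM in Control, a ratio of 2.13 (2.10 to 2.17). In endocardial-like nuclei it was 13977 and 3252 CPM, and in ventricular cardiomyocyte-like nuclei 16057 and 9669 CPM. Over the classes without cardiomyocyte-like nuclei it ranged from 2677 to 13977 CPM in CF-KI and from 1720 to 3820 CPM in Control. In each of the 9 classes compared, contractile RNA was present and at a higher level in CF-KI.

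Set against that RNA, Nppb differed far less between classes of CF-KI. Per 1000 contractile UMIs, ventricular cardiomyocyte-like nuclei had 8.47 Nppb UMIs (7.81 to 9.18) and fibroblast-like nuclei 8.93 (7.84 to 10.1), and the 9 classes without cardiomyocyte-like nuclei ranged from 6.53 to 9.48. In Control the ventricular value was 7.36 (6.66 to 8.11), the fibroblast-like value 5.18 (3.87 to 6.80), and the 10 other classes ranged from 2.71 to 7.18. The fibroblast-like Nppb difference was then 0.78 (0.35 to 1.24) on the log2 scale in place of 2.92, and the ventricular difference 0.20 (0.02 to 0.39) in place of 0.94. Among the 9 classes compared the difference was lowest in macrophage-like nuclei, at 0.01 (-0.73 to 0.77). It was highest in mesothelial or epicardial-like nuclei, at 1.48 (0.25 to 3.0), with 1.20 (-0.14 to 2.79) in pericyte-like and 0.90 (0.17 to 1.70) in endocardial-like nuclei. The ventricular value joins clusters of opposite direction: with no mitochondrial limit it was 0.50 (0.18 to 0.81) in cluster 2, -0.71 (-1.09 to -0.31) in cluster 4 and 0.75 (0.25 to 1.29) in cluster 5. In CF-KI the intervals of all 9 classes overlapped that of the ventricular value. Over the whole class with no mitochondrial limit, the ventricular difference per contractile UMI was 0.11 (-0.06 to 0.28) and the fibroblast-like one 0.80 (0.39 to 1.24). These smaller differences hold for this list of contractile genes. The 7 other cardiomyocyte genes set beside Corin below had a fibroblast-like ratio of 1.31 (1.27 to 1.34). Their ventricular level was lower in CF-KI, unlike that of the contractile genes. Nppb per UMI of those genes was not computed. The part of free RNA in the Nppb levels outside cardiomyocyte-like nuclei, and in their difference between the libraries, was not tested.

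**Figure D3:**
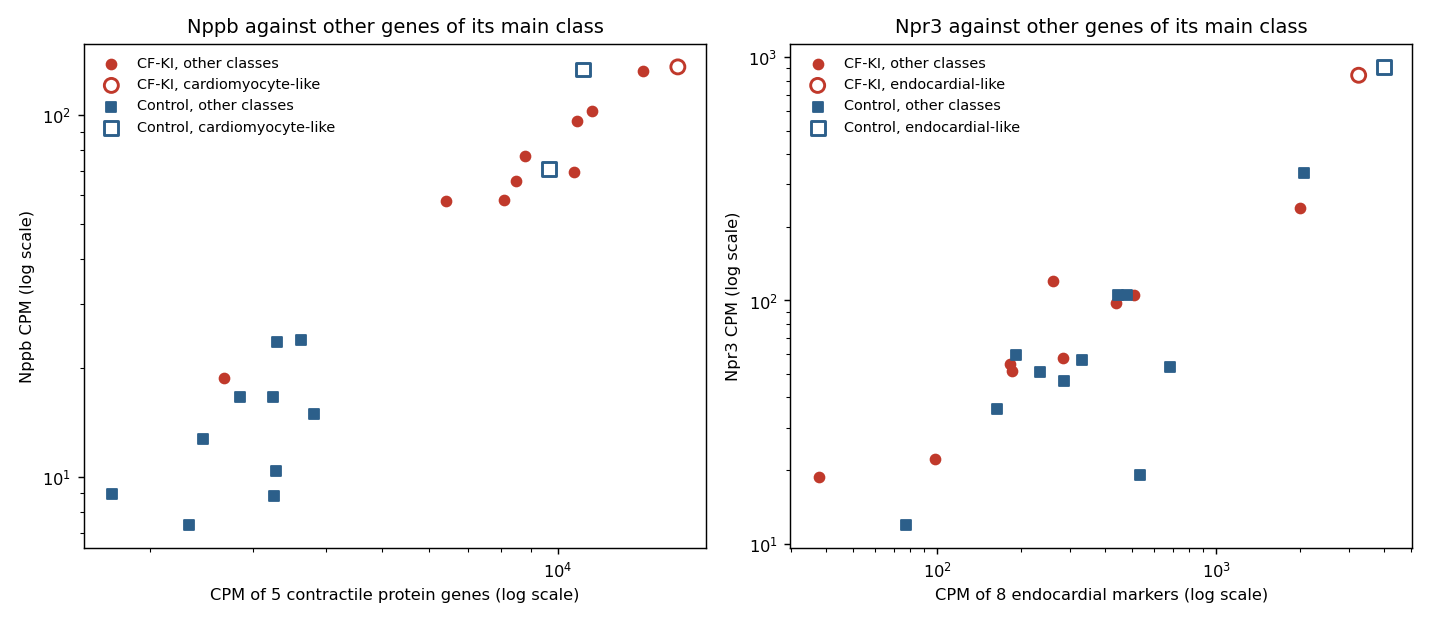
Left, Nppb level against the summed level of 5 contractile genes, and right, Npr3 level against the summed level of 8 endocardial markers, all in CPM on log axes, 1 point per class with at least 50 nuclei in a library (red circles CF-KI, blue squares Control). Open symbols are the cardiomyocyte-like classes on the left and the endocardial-like class on the right. In CF-KI the ventricular class is at 136 CPM of Nppb and the endocardial-like class at 132 CPM, and Control classes other than cardiomyocyte-like ones stay at or under 23.8 CPM.

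Within ventricular cardiomyocyte-like nuclei the Nppb difference depended on which nuclei were compared. At up to 1% mitochondrial UMIs the levels were 139 and 64.6 CPM, a ratio of 1.11 (0.59 to 1.59). From 1% to 5% they were 129 and 92.8 CPM, a ratio of 0.47 (0.07 to 0.89), and from 5% to 20% they were 155 and 181 CPM, a ratio of -0.23 (-0.79 to 0.37). The CF-KI level was thus similar in the 3 bins and the Control level was higher in each successive bin. Over the limit, the ratio was 1.13 (0.35 to 1.98) from 20% to 50% and 1.28 (0.32 to 2.44) from 50% to 100%. In cluster 2 Nppb was at 128 CPM in CF-KI (345 nuclei) and 62.1 CPM in Control (2026 nuclei). In cluster 4 it was at 132 CPM in CF-KI (2021 nuclei) and 208 CPM in Control (148 nuclei), a ratio of -0.66 (-1.04 to -0.25). In cluster 5 it was at 258 CPM in CF-KI (195 nuclei) and 193 CPM in Control (47 nuclei), a ratio of 0.42 (-0.48 to 1.41). The direction of the ventricular Nppb difference therefore reversed in cluster 4. In the bin of 5% to 20% the ratio was below 0 with an interval that held 0. Control had few nuclei in both.

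**Figure D4:**
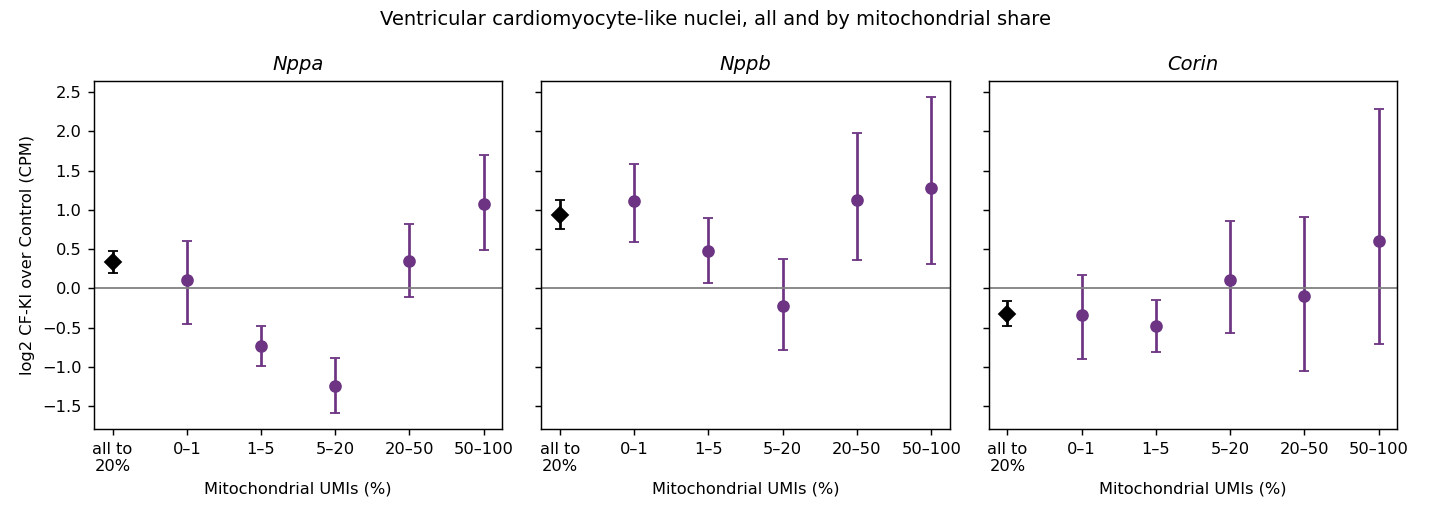
Log2 ratio of CF-KI over Control (vertical axis) of Nppa, Nppb and Corin in ventricular cardiomyocyte-like nuclei, for all nuclei with at most 20% mitochondrial UMIs (black diamond) and by bins of the percent of mitochondrial UMIs (purple circles, horizontal axis). Bars are 95% counting intervals. Nppa goes from 0.10 in the lowest bin to -1.24 in the bin of 5% to 20%, Nppb from 1.11 to -0.23, and Corin stays between -0.48 and 0.11 over the same bins. In the bins of 20% to 50% and 50% to 100%, Nppa is at 0.35 and 1.07. There Nppb is at 1.13 and 1.28, and Corin at -0.10 and 0.60.

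Corin, the protease gene, was a gene of cardiomyocyte-like nuclei in both libraries. Ventricular cardiomyocyte-like nuclei had 116 CPM in CF-KI (515 UMIs, interval 106 to 127) and 145 CPM in Control (841 UMIs, interval 136 to 155). Its ratio of -0.32 (-0.48 to -0.16) was the only one of Corin below 0 with an interval that excluded 0 among the 9 classes. A Corin UMI was found in 17.5% and 28.9% of the nuclei, and in 6.06% and 7.30% after thinning, so the gap in that share was narrower at equal depth. Outside the cardiomyocyte-like classes 0.83% to 7.07% of CF-KI and 0.80% to 3.05% of Control nuclei had one. Atrial cardiomyocyte-like nuclei held 2 UMIs in CF-KI and 29 in Control, 69.5 (8.42 to 251) and 185 (124 to 265) CPM, with overlapping intervals.

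Beside other cardiomyocyte transcripts the ventricular Corin difference turned. The 7 genes Ttn, Ryr2, Myh6, Cmya5, Rbm20, Ldb3 and Mybpc3 are mostly genes of the sarcomere or of calcium release. Together they were at 23861 CPM in CF-KI and at 34248 CPM in Control, a ratio of -0.52 (-0.53 to -0.51). Per 1000 of their UMIs Corin had 4.87 (4.46 to 5.31) and 4.24 (3.96 to 4.54), a ratio of 0.20 (0.04 to 0.36). With no mitochondrial limit that ratio was -0.23 (-0.38 to -0.07), so its direction depends on the limit. Within the limit the ventricular difference in Corin was smaller than that of the 7 genes together. In fibroblast-like nuclei Corin was at 23.9 and 7.84 CPM, a ratio of 1.6 (0.96 to 2.27), and per 1000 UMIs of the 7 genes at 3.08 (2.35 to 3.95) and 2.50 (1.71 to 3.53), with overlapping intervals. A partner gene on the other strand, Gm20647, had 136 UMIs in CF-KI and 107 in Control over all barcodes.

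Among the receptor genes Npr3 had the sharpest pattern. Endocardial-like nuclei, the lining of the chambers, had 844 CPM in CF-KI (675 UMIs, interval 781 to 910) and 913 CPM in Control (992 UMIs, interval 857 to 972). Those intervals overlap, and the ratio was -0.11 (-0.26 to 0.03). It was -0.42 (-1.11 to 0.19) in nuclei with 1% to 5% mitochondrial UMIs and 0.24 (0.05 to 0.42) in those with 5% to 20%, so it has no settled direction. Mesothelial or epicardial-like nuclei came next, at 240 (202 to 282) and 335 (297 to 378) CPM, a ratio of -0.48 (-0.79 to -0.19). The endocardial-like level was 3.52 times theirs in CF-KI and 2.72 times in Control, and no interval of either class reached that of the other. Endothelial-like nuclei, the close relatives of endocardial cells, had 51.4 and 46.7 CPM, so endocardial-like nuclei exceeded them 16.4 times and 19.5 times. A Npr3 UMI was found in 39.1% and 44.8% of endocardial-like nuclei at medians of 629 and 774 UMIs, against 3.75% and 2.88% of the deeper ventricular cardiomyocyte-like nuclei.

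The endocardial-like class was not uniform in Npr3. Cluster 3, with 996 CF-KI and 1035 Control nuclei, was at 943 CPM in CF-KI and at 1091 CPM in Control, a ratio of -0.21 (-0.35 to -0.07). For the whole class with no mitochondrial limit the ratio was -0.14 (-0.27 to -0.004). Cluster 15, a small group led by Wnt9b and Hapln1, had 141 CPM (14 UMIs) and 103 CPM (20 UMIs). Cluster 15 was also where Nppc, the ligand gene of Npr2, was found: with no mitochondrial limit it held 29 UMIs of Nppc in CF-KI (230 CPM) and 32 in Control (150 CPM), while cluster 3 held 5 and 1. The clearance receptor and the C-type peptide were thus highest in different endocardial-like clusters of both libraries.

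Low Npr3 levels elsewhere were set beside 8 endocardial markers (Cytl1, Tmem108, Adgrg6, Pkhd1l1, Smoc1, Nfatc1, Foxc1 and Vwf). Per 1000 of their UMIs Npr3 had 260 (239 to 283) in endocardial-like nuclei of CF-KI and 228 (213 to 245) in those of Control. Macrophage-like nuclei had 208 (160 to 267) and 220 (178 to 269), and fibroblast-like nuclei 300 (247 to 364) and 218 (181 to 261), with intervals that overlap the endocardial-like ones. Ventricular cardiomyocyte-like nuclei had 228 (181 to 284) and 154 (118 to 199), the latter below the endocardial-like interval. Mesothelial or epicardial-like nuclei had 120 (100 to 143) and 162 (142 to 184), below it. In pericyte-like nuclei Npr3 had 27 and 24 UMIs, 121 and 59.7 CPM, a ratio of 1.02 (0.17 to 1.87), and 466 (283 to 747) and 312 (188 to 498) per 1000 marker UMIs.

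Npr1, the receptor of the atrial and B-type peptides, was found in lining and covering layers. Mesothelial or epicardial-like nuclei had 101 (76.8 to 129) CPM in CF-KI and 102 (80.9 to 126) CPM in Control, from 60 and 83 UMIs. Endocardial-like nuclei had 70.0 and 77.3 CPM and endothelial-like nuclei 50.2 (80 UMIs) and 64.8 (68 UMIs) CPM. The ratios of these 3 classes were -0.01 (-0.52 to 0.48), -0.14 (-0.66 to 0.36) and -0.37 (-0.86 to 0.12), so no difference was detectable at this depth. Neighbours in the order of Npr1 levels overlapped in their intervals, except endothelial-like over macrophage-like nuclei in CF-KI. Ventricular cardiomyocyte-like nuclei had 2.48 and 2.24 CPM, which mesothelial or epicardial-like nuclei exceeded 40.5 times and 45.3 times. Atrial cardiomyocyte-like nuclei had no Npr1 UMI in CF-KI, which allows up to 104.3 CPM, and 1 in Control. In fibroblast-like nuclei Npr1 was at 16.8 and 27.2 CPM, a ratio of -0.69 (-1.24 to -0.17).

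Npr2, the receptor of the C-type peptide, was low and broad. Its level in fibroblast-like nuclei was 34.0 CPM in CF-KI (87 UMIs, interval 27.2 to 42.0) and 51.7 CPM in Control (211 UMIs, interval 45.0 to 59.2), a ratio of -0.60 (-0.98 to -0.24). A UMI was found in 3.04% and 5.49% of them, against 1.40% to 4.93% and 0.43% to 4.95% over 7 other classes that are not cardiomyocyte-like. In the 3 fibroblast-like clusters the CF-KI level was below the Control level: 28.6 and 77.7 CPM in cluster 0, 21.1 and 38.5 CPM in cluster 1, and 45.7 and 65.4 CPM in cluster 6. Only cluster 0 had an interval of the ratio that excluded 0 (-2.54 to -0.14), and it rests there on 8 Control UMIs. Lymphatic endothelial-like nuclei (48.7 and 53.1 CPM, from 7 and 6 UMIs) and endothelial-like nuclei (34.5 and 40.1 CPM) were at similar levels, with overlapping intervals. The fibroblast-like class was the only one of the 9 in which the interval of the Npr2 ratio excluded 0.

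Counted by class, few of the 6 genes were past 2-fold. Among members with at least 20 UMIs, 2 of 6 were past it in fibroblast-like nuclei (Nppb and Corin, both higher in CF-KI), where 8.0% of 12416 genes were. In endocardial-like nuclei 1 of 6 was (Nppb), against 10.2% of all genes, and in ventricular cardiomyocyte-like nuclei 0 of 6 were, against 12.5%. In endothelial-like nuclei 2 of 6 were (Nppb and Corin), against 7.31%, and in macrophage-like nuclei also 2 of 6 (the same genes), against 12.6%. In mesothelial or epicardial-like nuclei 1 of 5 was (Nppb), against 11.1%, and in pericyte-like nuclei 2 of 3 (Nppb and Npr3), against 19.7%. Of the 2 members counted in adipocyte-like and in lymphatic endothelial-like nuclei none was past 2-fold, where 17.6% and 15.4% of all genes were. No member with at least 20 UMIs was past 2-fold lower in any of the 9 classes. In the small atrial cardiomyocyte-like class Corin, with 31 UMIs in all, was past 2-fold lower with an interval that held 0 (-1.41, -4.52 to 0.57), where 28.4% of 1133 genes were past 2-fold in either direction.

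Around these genes stands a list of 24 others of the pathway: the ligands Nppc and Ostn, 6 enzymes of processing and degradation, 4 other sources of cyclic GMP, 5 effectors and 7 phosphodiesterases. Over the 9 classes 130 pairs of gene and class had at least 20 UMIs, and 19 were past 2-fold, 18 of them higher in CF-KI. In ventricular cardiomyocyte-like nuclei 3 of 17 genes were higher and 0 lower, where 10.5% and 1.99% of all genes were. They were Pcsk6, a convertase that activates corin (32.9 and 14.5 CPM, ratio 1.18, 0.79 to 1.59), and the soluble guanylyl cyclase subunits Gucy1a1 (33 and 13 UMIs, 1.73, 0.77 to 2.78) and Gucy1b1 (30 and 14 UMIs, 1.49, 0.53 to 2.51). Those subunits were at only 2.24 to 7.45 CPM there. Among the genes with more UMIs, Pam, which encodes a membrane protein of the atrial secretory granule, had a ratio of 0.42 (0.25 to 0.59) and Ide, an insulin and natriuretic peptide degrading enzyme, -0.43 (-0.64 to -0.23). The phosphodiesterase genes Pde3a (139 and 136 CPM, ratio 0.04, -0.12 to 0.19) and Pde1c (147 and 119 CPM, ratio 0.30, 0.14 to 0.46) differed little.

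In fibroblast-like nuclei 1 of 21 pathway genes was past 2-fold higher and 0 lower, where 5.09% and 2.91% of all genes were. It was Pln, the phospholamban gene of cardiomyocytes, at 1255 and 349 CPM (ratio 1.85, 1.75 to 1.94), against 3679 and 2845 CPM in ventricular cardiomyocyte-like nuclei. Pln was past 2-fold in 8 of the 9 classes, all but the ventricular one, where its ratio was 0.37. It thus accounted for 8 of the 19 pairs, beside contractile RNA that differed in the same direction. The processing genes Pcsk6 (503 and 685 CPM, ratio -0.45, -0.54 to -0.35) and Pam (311 and 463 CPM, ratio -0.57, -0.69 to -0.45) were lower in CF-KI by less than 2-fold. Dpp4, a peptidase gene, had a ratio of 0.55 (0.23 to 0.87). Prkg1, the cyclic GMP-dependent kinase, had 31.7 and 27.4 CPM, with an interval that held 0.

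In endocardial-like nuclei 2 of 18 pathway genes were past 2-fold higher and 0 lower, where 6.34% and 3.9% of all genes were. They were Pln and Pcsk6, the latter at 109 CPM in CF-KI (87 UMIs) and 37.7 CPM in Control (41 UMIs), a ratio of 1.53 (0.98 to 2.10). Pcsk6 was thus higher in CF-KI in endocardial-like and ventricular cardiomyocyte-like nuclei and lower in fibroblast-like nuclei, where it was most abundant. Nos3, the endothelial nitric oxide synthase, was at 180 and 220 CPM and Pde3a at 256 and 294 CPM, with intervals that held 0. Nppc had a ratio of 0.30 (-0.48 to 1.07). In macrophage-like nuclei 6 of 19 pathway genes were past 2-fold higher and 0 lower, where 6.33% and 6.23% of all genes were, and 5 of the 6 had under 50 UMIs over both libraries.

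The other classes had few pathway genes past 2-fold beside Pln. In endothelial-like nuclei Pln was the only one of 18, higher in CF-KI, where 2.76% of all genes were higher and 4.55% lower. The soluble guanylyl cyclase subunits were at 84.0 and 55.3 CPM for Gucy1a1 (ratio 0.60, 0.15 to 1.07) and 79.0 and 42.0 CPM for Gucy1b1 (ratio 0.91, 0.41 to 1.44). Of 13 genes in mesothelial or epicardial-like nuclei, Pln was higher and Vasp, an actin regulator phosphorylated by the cyclic GMP-dependent kinase, was lower (7 and 26 UMIs, ratio -1.44), against 6.9% and 4.24% of all genes. In pericyte-like nuclei 1 of 14 was higher and 0 lower (13.7% and 6.04% of all genes), in adipocyte-like nuclei 2 of 7 and 0 (9.07% and 8.52%), and in lymphatic endothelial-like nuclei 1 of 3 and 0 (8.96% and 6.44%). Of 4 genes in atrial cardiomyocyte-like nuclei none was past 2-fold.

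**Figure D5:**
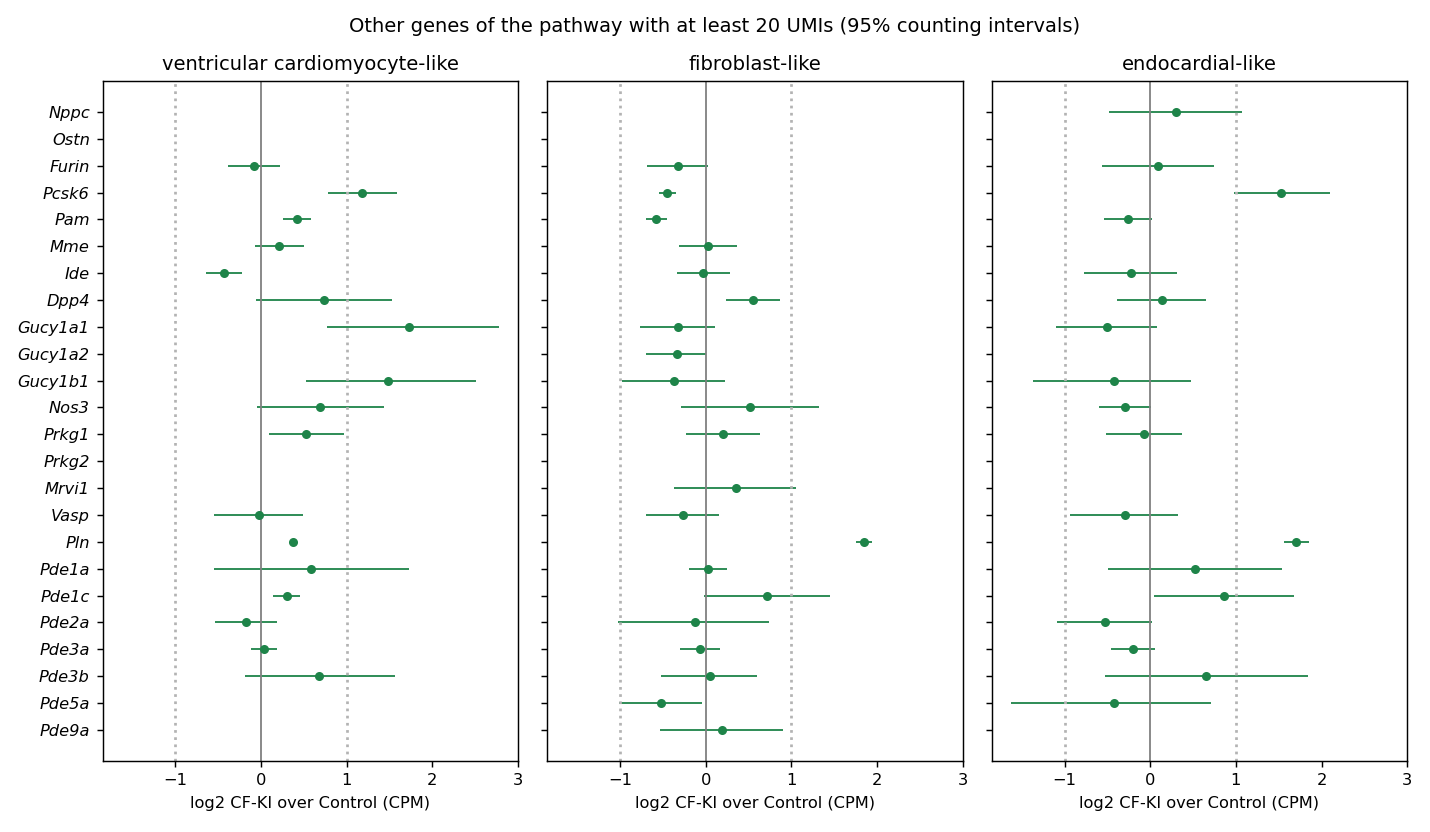
Log2 ratio of CF-KI over Control (horizontal axis, dotted lines at 2-fold) of the pathway genes with at least 20 UMIs in 3 classes, with 95% counting intervals. Most points lie between the dotted lines, and Pln at 1.85 in fibroblast-like and 1.71 in endocardial-like nuclei stands apart with a narrow interval, as does Pcsk6 at 1.18 in ventricular cardiomyocyte-like and 1.53 in endocardial-like nuclei.

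The genes with the most similar pattern were found by Pearson correlation of log2(CPM + 10) over 18 profiles, 9 classes in each library, among 10561 genes. These profiles share libraries and free RNA, so the values are descriptions. For Nppb they were Idh2 (r = 0.98), Hrc (0.96), Tnni3 (0.96), Adprhl1 (0.95) and Csrp3 (0.94), among them a mitochondrial dehydrogenase gene, a calcium-binding protein gene of the sarcoplasmic reticulum and 2 genes of the contractile apparatus. For Corin they were D7Ertd443e, Efcab2, Mypn, Itgb6 and Ryr2 (0.92 to 0.93). For Npr3 they were Ptgs1, Tmem108, Cpe, Cdh11 and Bace2 (0.91 to 0.93). Nppb and Corin, both genes of cardiomyocytes, shared none of their 5 nearest genes. For Npr1 the nearest was Myo1d (0.89) and for Npr2 Pcdhb16 (0.81). Nppa had weaker neighbours (Inhba, 0.82) in these 9 classes, which leave out the atrial one. With no mitochondrial limit, where the atrial class enters, its nearest were Sln (0.99), Myl4 (0.99), Myl7 (0.96), Pam (0.91) and Kcnj3 (0.91).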

How the data were processed

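The measured material was nuclear RNA of cardiac tissue in 2 single-nucleus libraries, CF-KI and Control, grouped by the sample labels. The deposited tables hold whole-number UMI counts per gene and barcode, made with Cell Ranger 6.1.1 per the file headers and the submitters' processing notes, and the counts were used as the authors deposited them. Whether introns or strand entered the counting is not given in the sources used here, so reads of a gene and an overlapping antisense gene may not be separable. The members and lists were chosen with earlier results of these data known.

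Barcodes with at least 200 genes were kept, doublets called by Scrublet in scanpy 1.11.5 were removed (expected rate 0.8% per 1000 barcodes), and the 2 libraries were jointly clustered (2000 variable genes, 30 components, 15 neighbours) with leidenalg 0.10.2 at resolution 0.8 (anndata 0.12.19, scikit-image 0.26.0, Python 3.11.15). A cluster was named when at least 3 markers of a list were raised by a log2 fold of 1, each in at least 5% of nuclei. Nuclei with at most 20% mitochondrial UMIs were then summed by class and library. Intervals (95%, scipy 1.17.1) are exact Poisson for levels, exact binomial for ratios and Clopper-Pearson for shares. UMIs of 1 library are not replicates, and intervals and the limit that a count of 0 allows (3 UMIs) cover counting error only. Nuclei thinned to 500 UMIs leave out shallower nuclei. Ratios past 2-fold were counted among genes with at least 20 UMIs.

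The genes named are the 6 members, pathway genes with at least 20 UMIs, markers used as checks, and the 5 genes of at least 200 UMIs most like each member. Alternatives were other limits, resolutions, doublet handling, separate clustering, TMM (edgeR 4.0.16) and DESeq2 1.42.0 scaling (R 4.3.3), subtraction of free RNA and thinning. Those by mitochondrial bin, shared barcodes and clustering within the limit were added after seeing the data. The interval and ratio code was tested on simulated data.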

Additional observations from a re-analysis of the deposited data

Results flagged for a closer look

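Ratios of 3 genes pointed in opposite directions in different classes, each with an interval that excluded 0. For each gene the classes with the highest and the lowest ratio are given. The share of all genes with such opposite intervals was not computed, so the count of 3 is not a result about these genes. The difference between classes was not tested, as there is 1 library per genotype. For Nppa the log2 ratio of CF-KI over Control was 0.91 (0.09 to 1.79) in lymphatic endothelial-like nuclei, from 43 and 18 UMIs, and -0.86 (-1.19 to -0.53) in macrophage-like nuclei, from 108 and 298 UMIs. The 4 atrial genes had a ratio of -0.49 (-0.96 to -0.03) in the same macrophage-like nuclei, and their part in the Nppa difference was not tested. For Npr3 it was 1.02 (0.17 to 1.87) in pericyte-like nuclei, from 27 and 24 UMIs, and -0.48 (-0.79 to -0.19) in mesothelial or epicardial-like nuclei, from 143 and 274 UMIs. For Corin it was 1.91 (0.94 to 2.96) in macrophage-like nuclei, from 32 and 13 UMIs, and -0.32 (-0.48 to -0.16) in ventricular cardiomyocyte-like nuclei. In those macrophage-like nuclei the 7 other cardiomyocyte genes had a ratio of 1.23 (1.18 to 1.28), and per 1000 of their UMIs Corin had 3.71 (2.53 to 5.24) in CF-KI and 2.31 (1.23 to 3.96) in Control.

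Barcodes over the mitochondrial limit, which the comparisons leave out, also held hormone RNA. The 1648 CF-KI barcodes of the ventricular cardiomyocyte-like class over the limit had 581 CPM of Nppa (531 to 634) and 253 CPM of Nppb (221 to 289). The 217 such barcodes of Control had 371 CPM (295 to 460) and 118 CPM (76.8 to 172).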

How the results depend on the processing

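Of 135 alternatives, 96 left the value within its counting interval (counts within 1.5 times), 27 moved it and 12 reversed a value whose interval excluded 0. Where that interval held 0, a change of sign was not counted as reversed: 5 of the 96 took Nppb in the atrial class below 0, the lowest to -0.57, and 1 of the 27 took Npr3 above 0. The cause of each change was not tested. Values are log2 ratios of CF-KI over Control. Nppa in atrial cardiomyocyte-like nuclei (0.41) became -0.34 at up to 5% mitochondrial UMIs, -0.37 from 1% to 5%, -0.64 from 5% to 20%, -0.35 with TMM, -0.46 with DESeq2 scaling, -0.17 when thinned, 0.85 with no limit and 3.38 with separate clustering, which left 2 CF-KI nuclei in the class. Nppa in ventricular cardiomyocyte-like nuclei (0.34) became -0.0033 when thinned, -0.69 when clustered within the limit, -0.73 from 1% to 5%, -1.24 from 5% to 20%, 0.10 up to 1%, 0.71 with no limit, 0.76 with separate clustering, 0.17 with TMM, 0.13 with DESeq2 scaling and 0.083 with free RNA subtracted. Nppb became 2.31 in the atrial class (0.64) with separate clustering. In the ventricular class (0.94) it became 0.73 with DESeq2 scaling, 0.75 with free RNA subtracted, 1.20 when thinned, 0.47 from 1% to 5% and -0.23 from 5% to 20%. Corin in the ventricular class (-0.32) became -0.49 with TMM, -0.53 with DESeq2 scaling, -0.48 from 1% to 5% and 0.11 from 5% to 20%. At up to 5% and from 1% to 5%, Npr1 in endothelial-like nuclei (-0.37) became -1.0 and -0.99, Npr2 in fibroblast-like nuclei (-0.60) -1.60 and -1.58, and Npr3 in endocardial-like nuclei (-0.11) -0.40 and -0.42. From 1% to 5% the Npr1 value rests on 5 CF-KI UMIs (-2.69 to 0.36) and the Npr2 value on 1 (-6.90 to 0.96), with intervals that held 0. Npr3 was 0.24 from 5% to 20%. Pathway pairs past 2-fold numbered 49 with a minimum of 1 UMI and 10 with 100, against 19. Of the 30 genes most like the members, 17 were shared with a pseudocount of 100 CPM and 13 with no limit.

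TMM and DESeq2 scaling moved the median gene by -0.17 and -0.21 in ventricular cardiomyocyte-like, 0.12 and 0.12 in endothelial-like and -0.23 and -0.19 in pericyte-like nuclei, and DESeq2 alone by 0.13 in lymphatic endothelial-like and -0.11 in adipocyte-like nuclei. Clustering within the limit gave no atrial class, and at up to 1% mitochondrial UMIs the atrial genes, Npr1, Npr2 and Npr3 had no value. No paired analysis was possible because each genotype has 1 library, and no replicate could be left out. Low counts limit Npr1 and Npr2 most.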
